A study of Homo sapiens with 4 samples.

Results

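The genes of homologous recombination and the Fanconi anemia pathway were followed in sh60 and LacZ libraries of NTERA2 cells, a human embryonal carcinoma line. They were chosen by name as 35 symbols among the 26364 genes of the count tables, and all 35 had enough reads to be tested. The set holds 6 checkpoint kinases and adaptors, 6 genes of break sensing and resection, 5 BRCA proteins and partners, 6 strand exchange factors, 8 genes of the Fanconi core complex with its E2 enzyme, 2 genes of the Fanconi ID2 complex and 2 mismatch repair genes. Messenger RNA was sequenced in 4 libraries, 2 labelled BEND3 sh60 (replicates 1 and 2) and 2 labelled BEND3 LacZ (replicates 1 and 3), all of clone CRL-1973. The labels give these names without more detail. LacZ is taken to be the control, and sh60 a hairpin that targets BEND3, a chromatin-bound repressor of transcription with BEN domains. The labels also give neither the hairpin's sequence nor its delivery or the time of harvest, and a single hairpin in a single line was measured. Nothing in the labels says that replicates came from separate cultures, so a p-value here rests on the spread of the samples at hand, and that spread may be technical.

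Homologous recombination repairs a broken chromosome by copying the sister chromatid. The MRN complex senses the break, nucleases cut back one strand, and BRCA1, PALB2 and BRCA2 with the strand exchange factors then prepare the exposed strand to invade the intact copy. The Fanconi core complex responds to crosslinks between the strands by attaching ubiquitin to FANCD2 and FANCI, and the kinases ATM and ATR, through CHEK2 and CHEK1, hold the cell cycle while repair proceeds. Pluripotent and embryonal carcinoma cells divide fast and spend much of their cycle in S phase, when the sister chromatid is at hand and many of these genes are transcribed.

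Levels are given as CPM, counts scaled to library size with TMM factors. Differences are log2 fold changes of sh60 over LacZ from edgeR's quasi-likelihood test, in which Benjamini-Hochberg adjustment covered the 16040 genes tested and the threshold was 0.05. Library totals were 33798665 and 44788461 counts for sh60 replicates 1 and 2, and 42538561 and 30338285 counts for LacZ replicates 1 and 3. The least counted of the 35 genes, FANCE, had at least 218 counts in every library. BEND3 itself stood at 55.7 and 52.0 CPM in the sh60 libraries and at 68.8 and 79.3 CPM in the LacZ libraries. This gave BEND3 a log2 fold change of -0.46 (SE 0.10, adjusted p = 0.00168). Without LacZ replicate 3 the change was -0.36 and did not pass (adjusted p = 0.153). The labels describe a lung carcinoma, but all 11 markers of embryonal carcinoma were tested, with a lowest value of 5.63 CPM, whereas no lung marker exceeded 0.932 CPM and SFTPB and SCGB1A1 were at 0 in every library.

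Of the 35 genes, 9 were lower in sh60 and 0 were higher, and 26 did not pass. Over all genes tested, 13.0% were lower and 15.8% were higher, and the 9 genes are 25.7% of the set. The set was chosen with earlier results of these data known, so these shares are descriptions only. The 9 were CHEK1, CHEK2, CLSPN, DNA2, BLM, XRCC3, RAD54L, FANCL and MSH6, and their decreases were modest, between 16.9% (CHEK1) and 34.4% (CHEK2). DESeq2 called the same 9 genes lower and 0 higher (10.6% and 12.8% of all genes). At an unadjusted p under 0.05 edgeR had 12 of the 35 genes, each with a negative fold change. Over all genes, with both directions together, it had 6262 of 16040. Lower genes alone were not counted at this threshold, so the 12 have no matched share beside them. The median log2 fold change was -0.14 over the 35 genes and -0.0042 over all genes tested, with a range among the 35 of -0.61 to 0.22. Without sh60 replicate 1 the median of the 35 was -0.22, and without sh60 replicate 2 it was -0.069. Both sh60 libraries lay below both LacZ libraries in 20 of the 35 genes, against 32.3% of all genes, and above them in 1, RAD51C, against 32.1%. These are bulk libraries, in which fewer cells expressing a gene and less RNA per cell cannot be told apart.

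**Figure D1:**
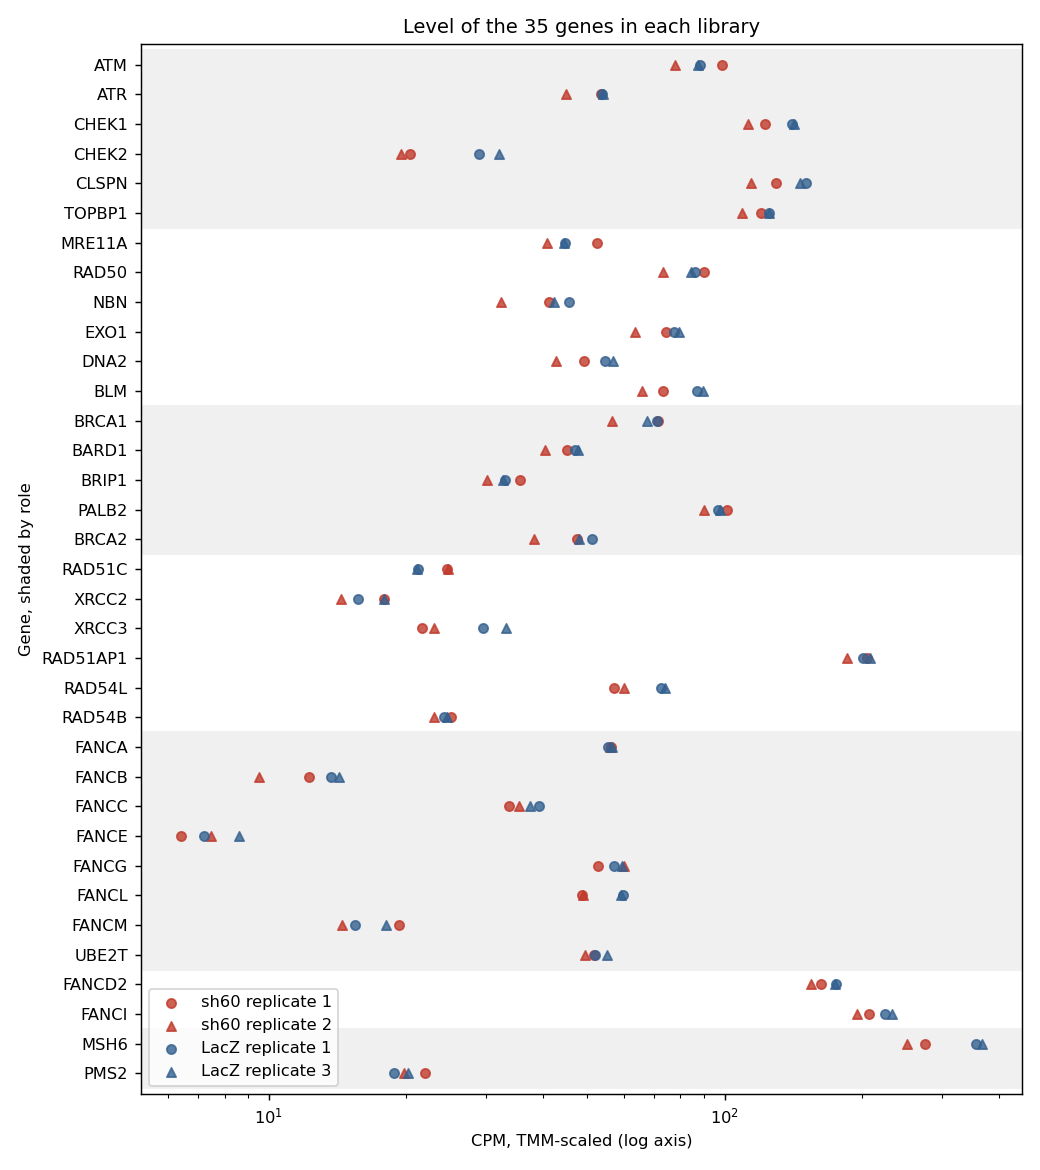
Level of each of the 35 genes in the 4 libraries, in TMM-scaled CPM on a log axis, with sh60 in red and LacZ in blue and roles marked by alternating shading. The red points of MSH6, CHEK2 and XRCC3 lie clear of the blue ones, whereas those of ATM, FANCA and PMS2 overlap them.

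**Figure D2:**
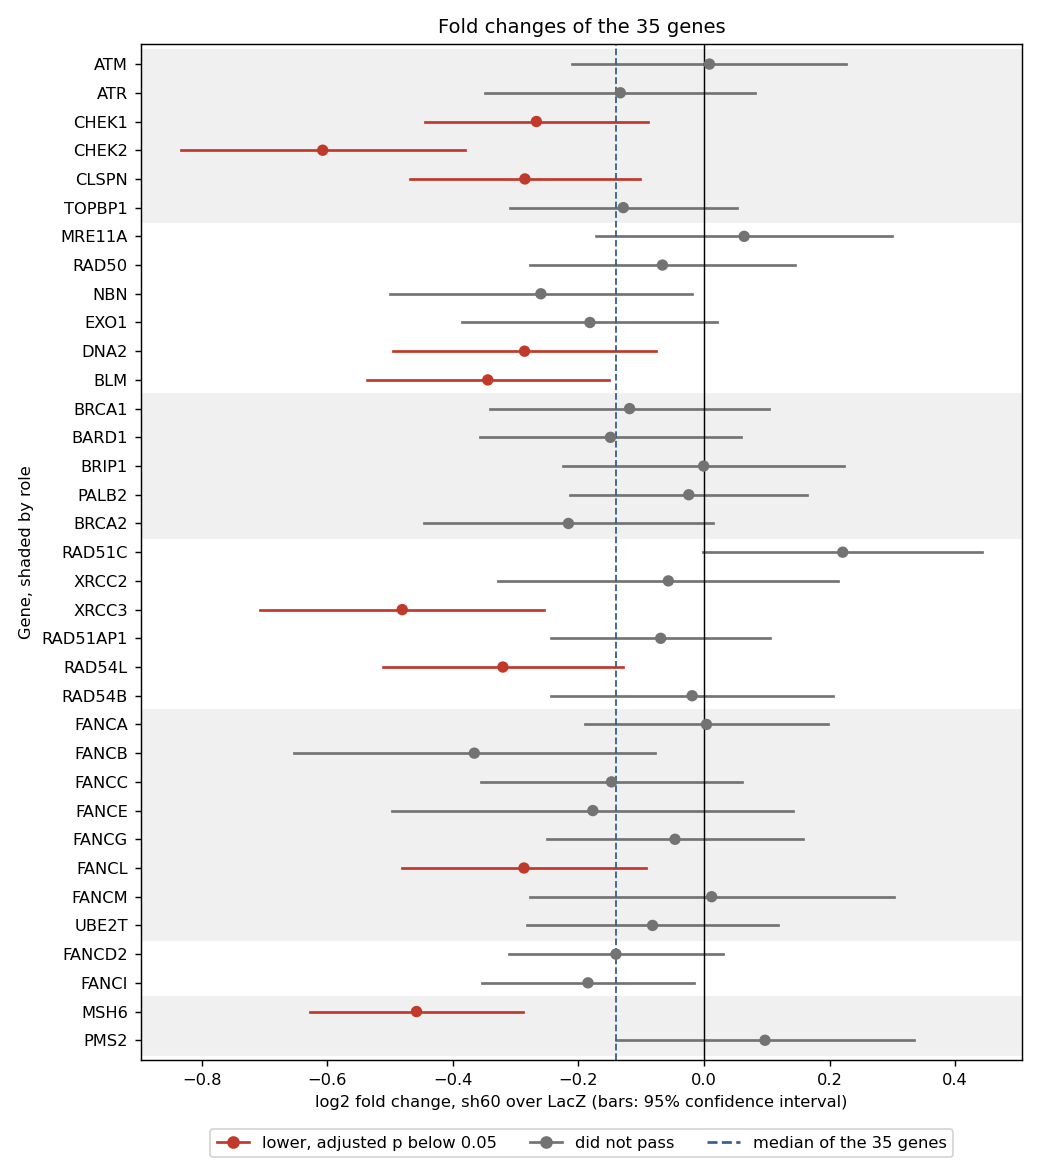
Log2 fold change of sh60 over LacZ for each of the 35 genes, with 95% confidence intervals from edgeR's fit. The 9 genes that passed are in red, all left of 0, and the dashed line marks the median of -0.14.

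The count depended on which library was left out. Without LacZ replicate 1, 3 of the 35 genes were lower (8.57%, against 7.20% of all genes) and 0 higher (11.1% of all genes). Without LacZ replicate 3, 2 were lower (5.71%, against 5.77% of all genes) and 0 higher (8.04% of all genes). These shares of lower genes lay near those of all genes. Without sh60 replicate 1, 20 were lower (57.1%, against 16.3% of all genes) and 0 higher (16.9% of all genes). Without sh60 replicate 2, 8 were lower (22.9%, against 15.5% of all genes) and MRE11A was higher (16.8% of all genes). The genes added without sh60 replicate 1 were ATR, TOPBP1, RAD50, NBN, EXO1, BRCA1, BARD1, BRCA2, FANCB, FANCD2 and FANCI. In each of these fits 1 group had a single library, which was assumed to vary like the other group. Other scalings moved the count less: 11 were lower with upper-quartile scaling (16.1% of all genes), 8 with library totals (11.7%) and 9 with DESeq2's size factors (12.9%). With limma-voom 10 were lower (13.2% of all genes), with no filter on low counts 10 (10.5%), with a stricter filter 9 (14.3%) and with the length trend removed 11 (15.0%). CHEK2 and MSH6 were called lower under each of the 13 alternative settings, and XRCC3 under all but the one without LacZ replicate 3.

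**Figure D3:**
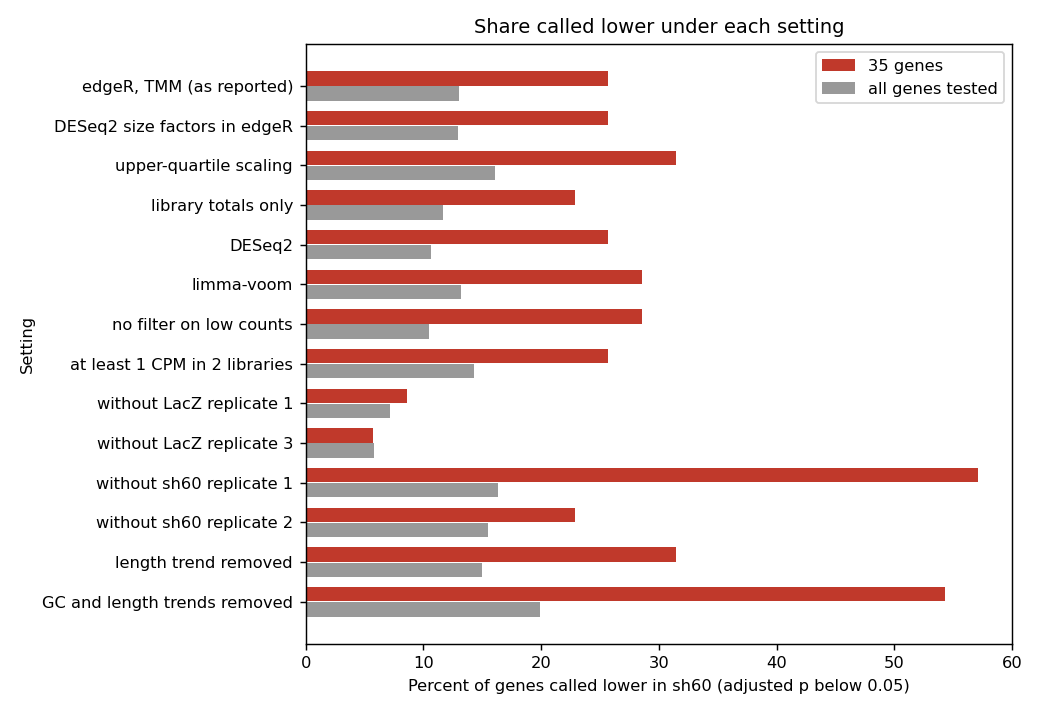
Percent of the 35 genes (red) and of all genes tested (grey) called lower in sh60 under each setting. The red bar is longer than the grey one in the fit as reported, at 25.7% against 13.0%, and about equal to it without LacZ replicate 3, at 5.71% against 5.77%.

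Members with the smallest p-values on each side are shown with the 250 bases before their most upstream listed start. Sequences run 5′ to 3′ on the strand of the gene, from RefSeq on GRCh38.p14. MSH6, CHEK2 and XRCC3 had the smallest p-values on the lower side, and RAD51C had the smallest on the higher side without passing. Capitals mark the letters CCAAT or, on the other strand, ATTGG, the CCAAT box bound by NF-Y.
MSH6, chr2:47782895-47783144, plus strand: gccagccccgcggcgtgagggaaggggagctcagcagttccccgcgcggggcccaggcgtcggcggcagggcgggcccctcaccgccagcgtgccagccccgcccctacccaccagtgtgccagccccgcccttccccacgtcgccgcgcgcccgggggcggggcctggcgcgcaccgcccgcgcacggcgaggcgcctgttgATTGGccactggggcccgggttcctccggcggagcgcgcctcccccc
CHEK2, chr22:28741821-28742070, minus strand: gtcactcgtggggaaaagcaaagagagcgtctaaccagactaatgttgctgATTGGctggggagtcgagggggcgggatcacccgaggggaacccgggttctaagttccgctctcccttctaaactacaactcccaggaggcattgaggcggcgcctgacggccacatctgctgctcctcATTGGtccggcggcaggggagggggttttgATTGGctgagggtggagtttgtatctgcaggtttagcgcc
XRCC3, chr14:103715452-103715701, minus strand: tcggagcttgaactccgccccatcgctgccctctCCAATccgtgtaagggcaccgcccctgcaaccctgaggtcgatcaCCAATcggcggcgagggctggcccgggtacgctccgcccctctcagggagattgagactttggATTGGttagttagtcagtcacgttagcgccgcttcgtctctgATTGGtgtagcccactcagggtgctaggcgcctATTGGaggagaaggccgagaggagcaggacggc
RAD51C, chr17:58692323-58692572, plus strand: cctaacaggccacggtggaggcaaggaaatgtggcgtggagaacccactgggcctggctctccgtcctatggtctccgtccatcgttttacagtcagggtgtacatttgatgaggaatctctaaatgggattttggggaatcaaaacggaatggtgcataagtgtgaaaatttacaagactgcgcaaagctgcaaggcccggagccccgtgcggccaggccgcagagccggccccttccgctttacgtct
The XRCC3 window held 5 CCAAT boxes, that of CHEK2 held 3, that of MSH6 held 1 and that of RAD51C held 0. RAD51C did not pass and has 2 listed starts, so no contrast between lower and higher genes is drawn from these windows.

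Promoter windows were listed for 31 of the 35 genes, and MSH6 and some others have several listed starts, so a gene was counted if any of its windows held a motif on either strand. CCAAT was found in 17 of the 31 genes (54.8%), against 40.9% of the 11586 tested genes with a listed window, and in 7 of the 8 lower genes that have one. The E2F type was searched as TTCCCGC, and in the same way as TTGGCGC, then also as TTCGCGC, and finally as TTGCCGC. At least 1 of these was found in 11 of the 31 (35.5%), against 20.5% of tested genes, and in 4 of the 8 lower genes, MSH6 (at a start other than the one printed), BLM, RAD54L and FANCL. The cell cycle homology region, searched as TTTGAA or TTCGAA, was found in 4 of the 31 (12.9%), against 13.9%, and in 0 of the 8 lower genes. TTGGCGC shares letters with a CCAAT box on the other strand where an A precedes it. Counted by window, CCAAT was in 51.2% of the 43 windows of these genes and in 32.0% of all 35116 windows. The E2F type was in 37.2% and 10.9%. The 35116 windows are those of every listed gene, tested or not, and so are not matched to the 31 genes. These matches are descriptions that were looked for after the values were seen, with no test.

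Among the checkpoint kinases and adaptors, 3 of 6 genes were lower in sh60 (50%, against 13.0% of all genes). None was higher (15.8% of all genes), and 3 did not pass. CHEK2, the kinase that ATM activates at double-strand breaks (hg19 chr22:29083731-29137822, minus strand), stood at 20.4 and 19.5 CPM in sh60 and at 28.9 and 31.9 CPM in LacZ. Both sh60 libraries of CHEK2 lay below both LacZ libraries, as in 32.3% of all genes. The log2 fold change of -0.61 (SE 0.11, adjusted p = 0.000337) was the largest decrease of the 35. CHEK2 has near-identical pseudogene copies, and reads that fit several places are assumed to have been left out, so its level is uncertain. CHEK1, the kinase that ATR activates at stalled forks, had 122 and 113 CPM in sh60 and 140.5 and 142.1 CPM in LacZ (log2 fold change -0.27, SE 0.08, adjusted p = 0.0236). CLSPN, whose product claspin brings CHEK1 to ATR, had 129.8 and 114 CPM in sh60 and 151 and 146 CPM in LacZ (log2 fold change -0.29, SE 0.09, adjusted p = 0.0200). In both genes each sh60 library lay below each LacZ library, but without LacZ replicate 1 neither passed (adjusted p = 0.261 for CHEK1 and 0.284 for CLSPN), nor without LacZ replicate 3 (0.326 and 0.211). The log2 fold changes in those 2 fits were -0.27 and -0.26 for CHEK1 and -0.26 and -0.31 for CLSPN, and the SE was 0.16 in each.

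The upstream kinases did not pass. ATM had 98.9 and 77.9 CPM in sh60 and 88.3 and 87.3 CPM in LacZ, so that the sh60 libraries lay on either side of the LacZ libraries. ATR had 53.5 and 44.9 CPM in sh60 and 53.7 and 54.1 CPM in LacZ, with a log2 fold change of -0.13 (95% interval -0.35 to 0.08, adjusted p = 0.365). TOPBP1, the activator of ATR, had 120.4 and 109 CPM in sh60 and 125 and 125 CPM in LacZ (log2 fold change -0.13, adjusted p = 0.294). Without sh60 replicate 1, ATR and TOPBP1 were both called lower (adjusted p = 0.0128 and 0.0143).

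Of the 6 genes of break sensing and resection, 2 were lower (33.3%, against 13.0% of all genes). None was higher (15.8% of all genes), and 4 did not pass. BLM, the helicase that unwinds recombination intermediates and joins in long-range resection, had 73.4 and 65.9 CPM in sh60 and 87.0 and 89.7 CPM in LacZ (log2 fold change -0.34, SE 0.09, adjusted p = 0.00856). DNA2, a nuclease and helicase that resects together with BLM, had 49.0 and 42.6 CPM in sh60 and 54.5 and 57.0 CPM in LacZ (log2 fold change -0.29, SE 0.10, adjusted p = 0.0390). In neither gene did the groups overlap, and 32.3% of all genes likewise had both sh60 libraries below both LacZ libraries. Without LacZ replicate 1 or 3, BLM did not pass (adjusted p = 0.119 and 0.204), nor did DNA2 (0.208 and 0.377), which was also lost without sh60 replicate 2 (0.0848). The log2 fold changes without LacZ replicates 1 and 3 were -0.36 and -0.32 for BLM and -0.31 and -0.25 for DNA2, with SEs of 0.16 to 0.17, and that of DNA2 without sh60 replicate 2 was -0.19 (SE 0.08).

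EXO1, the exonuclease of the other long-range resection route, had 74.5 and 63.5 CPM in sh60 and 77.3 and 79.2 CPM in LacZ (log2 fold change -0.18, adjusted p = 0.176). The 3 subunits of the MRN sensor did not pass. NBN, its signalling subunit, had 41.2 and 32.3 CPM in sh60 and 45.6 and 42.2 CPM in LacZ (log2 fold change -0.26, adjusted p = 0.0994). Both sh60 libraries of NBN lay below both LacZ libraries, as in 32.3% of all genes. MRE11A, the nuclease, had 52.4 and 40.8 CPM in sh60 and 44.6 and 44.4 CPM in LacZ, and RAD50, the ATPase that tethers the ends, had 90.0 and 73.1 CPM in sh60 and 86.1 and 84.4 CPM in LacZ. In both genes sh60 replicate 1 was above and sh60 replicate 2 below the 2 LacZ libraries. MRE11A was called higher without sh60 replicate 2 (log2 fold change 0.24, adjusted p = 0.0322) and had a fold change of -0.12 without sh60 replicate 1, when RAD50 was called lower (adjusted p = 0.0148).

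None of the 5 BRCA proteins and partners passed, where 13.0% of all genes were lower and 15.8% higher. With the trends on GC content and length removed, 3 of the 5 were lower (60%, against 19.9% of all genes). BRCA1, the ubiquitin ligase and scaffold that steers breaks toward recombination, had 71.2 and 56.7 CPM in sh60 and 71.0 and 67.6 CPM in LacZ (log2 fold change -0.12, 95% interval -0.34 to 0.10, adjusted p = 0.443). BRCA2, which acts on the resected strand, had 47.4 and 38.2 CPM in sh60 and 51.2 and 47.9 CPM in LacZ (log2 fold change -0.22, 95% interval -0.45 to 0.01, adjusted p = 0.153). BARD1, the partner of BRCA1 in the ligase, lay at 45.0 and 40.3 CPM in sh60 and 46.9 and 47.7 CPM in LacZ (adjusted p = 0.287). Of these, BRCA2 and BARD1 had both sh60 libraries below both LacZ libraries, as did 32.3% of all genes. All 3 were called lower without sh60 replicate 1 (adjusted p = 0.00383 for BRCA1, 0.00116 for BRCA2 and 0.0368 for BARD1). PALB2, the bridge between BRCA1 and BRCA2, and BRIP1, the helicase bound to BRCA1, had log2 fold changes of -0.02 and -0.00062 and 95% intervals of -0.21 to 0.16 and -0.22 to 0.22. BRCA1 has a partial copy beside it in the genome, and its level is uncertain for that reason.

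Of XRCC3, RAD51C and XRCC2, 3 of the strand exchange factors, XRCC3 alone passed. RAD51C and XRCC2 did not, so the signs of their fold changes are not established. XRCC3 (hg19 chr14:104163954-104181823, minus strand) had 21.7 and 23.0 CPM in sh60 and 29.5 and 33.1 CPM in LacZ. Both sh60 libraries of XRCC3 lay below both LacZ libraries, as in 32.3% of all genes. The change of XRCC3 was -0.48 on the log2 scale (SE 0.11, adjusted p = 0.00248). Without LacZ replicate 3 it was -0.40 and did not pass (adjusted p = 0.0993). RAD51C, which forms a complex with XRCC3, had 24.6 and 24.7 CPM in sh60 and 21.2 and 21.1 CPM in LacZ (hg19 chr17:56769934-56811703, plus strand). Both sh60 libraries of RAD51C were above both LacZ libraries, as in 32.1% of all genes. The log2 fold change of 0.22 (95% interval -0.0015 to 0.44) did not pass (adjusted p = 0.131). RAD51C passed under none of the 13 alternatives (adjusted p 0.0715 to 0.209 in those with all 4 libraries). XRCC2, a subunit of a related complex, had 17.9 and 14.4 CPM in sh60 and 15.7 and 17.9 CPM in LacZ, which overlap.

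RAD54L, the motor protein that drives strand exchange, had 57.3 and 60.1 CPM in sh60 and 72.6 and 74.1 CPM in LacZ. The change of RAD54L was -0.32 on the log2 scale (SE 0.09, adjusted p = 0.0127), and it did not pass without LacZ replicate 1 (-0.33, SE 0.17, adjusted p = 0.171) or 3 (-0.31, SE 0.17, adjusted p = 0.243). RAD51AP1, which stimulates strand invasion, had 205 and 186 CPM in sh60 and 201 and 208 CPM in LacZ. The motor RAD54B had a log2 fold change of -0.02 (adjusted p = 0.919), but 5403 of its 8477 exon bases overlap FSBP on the same strand, and reads on both are assumed to have been left out, so its level is uncertain.

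In the Fanconi core complex 1 of 8 genes was lower (12.5%, against 13.0% of all genes), a share near that of all genes, and 7 did not pass. FANCL, the ubiquitin ligase of the complex, had 48.7 and 48.9 CPM in sh60 and 59.9 and 59.2 CPM in LacZ, the tightest replicates among the lower genes. The change of FANCL was -0.29 on the log2 scale (SE 0.09, adjusted p = 0.0261), and it did not pass without LacZ replicate 1 (-0.27, SE 0.17, adjusted p = 0.291) or 3 (-0.30, SE 0.17, adjusted p = 0.270). FANCB, which holds FANCL in the catalytic module, had 12.2 and 9.52 CPM in sh60 and 13.7 and 14.3 CPM in LacZ (log2 fold change -0.37, SE 0.14, adjusted p = 0.0527). FANCB missed the threshold narrowly and passed under 5 of the 13 alternatives.

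The remaining core genes did not pass. FANCA and FANCG, which form a module of their own, had log2 fold changes of 0.00 and -0.05, and FANCC and FANCE, of another module, had -0.15 and -0.18. FANCA was the steadiest of these, at 56.3 and 56.0 CPM in sh60 and 55.4 and 56.6 CPM in LacZ. FANCM, the motor that brings the complex to DNA, had 0.01, with an interval of -0.28 to 0.30. UBE2T, the E2 enzyme that works with FANCL, had 51.8 and 49.3 CPM in sh60 and 51.9 and 55.2 CPM in LacZ (log2 fold change -0.08, adjusted p = 0.566). Their lowest adjusted p was 0.295, that of FANCC.

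The ID2 pair, which the core complex modifies, did not pass. In both genes each sh60 library was below each LacZ library, as in 32.3% of all genes. FANCD2 had 163 and 155 CPM in sh60 and 176 and 175 CPM in LacZ (log2 fold change -0.14, adjusted p = 0.216). FANCI had 208 and 196 CPM in sh60 and 225 and 233 CPM in LacZ (log2 fold change -0.18, 95% interval -0.35 to -0.02, adjusted p = 0.0957). FANCD2 has pseudogene copies, which make its level uncertain.

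MSH6 and PMS2 belong to mismatch repair. MSH6 passed and PMS2 did not, so no contrast in sign is drawn between them. MSH6, a subunit of the dimer that recognises mismatched bases, lies on hg19 chr2:48010221-48034092, plus strand. It stood at 275 and 251 CPM in sh60 and 356 and 368 CPM in LacZ, the highest CPM of the 35. The log2 fold change of MSH6 was -0.46 (SE 0.08, adjusted p = 0.000330), a decrease of 27.2%. PMS2, a subunit of the endonuclease that nicks the strand that holds the error, had 22.0 and 19.8 CPM in sh60 and 18.8 and 20.2 CPM in LacZ (log2 fold change 0.10, adjusted p = 0.568), and its many pseudogene copies make that level uncertain.

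Per kilobase of exon, RAD51AP1 was the most abundant of the 35 mRNAs, at a mean of 86.1 CPM per kb in sh60 and 90.3 in LacZ. MSH6 followed with 58.8 in sh60 and 80.8 in LacZ, and UBE2T with 55.4 in sh60 and 58.7 in LacZ. FANCM was the least abundant in both groups, at 2.36 CPM per kb in sh60 and 2.34 in LacZ. The 4 most abundant genes held the same ranks in both groups.

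The 2 sh60 libraries differed from each other in these genes. The CPM of sh60 replicate 1 exceeded that of sh60 replicate 2 in 28 of the 35 genes, with a median log2 ratio of 0.16, whereas over all genes tested it did so in 7865 of 16040. LacZ replicate 1 exceeded LacZ replicate 3 in 12 of the 35, with a median log2 ratio of -0.02. The ratio between the sh60 libraries was higher in transcripts with little GC, such as FANCM (0.41 at 37.7% GC), MRE11A (0.36 at 38.5%) and ATM (0.35 at 39.1%), and below 0 in FANCE (-0.22 at 57.9%) and FANCG (-0.18 at 58.1%). Across the 35 genes it had a Pearson's r of -0.77 and a Spearman's rho of -0.68 with GC content, and across 15614 tested genes an r of -0.55. With log2 exon length the sh60 ratio had an r of 0.50 and a rho of 0.50 over the 35 genes. The ratio of LacZ replicate 1 over LacZ replicate 3 had an r of -0.37 and a rho of -0.22 with GC content. In each of these relations the points share the same 2 libraries, and genes are not independent replicates. The fold change of sh60 over LacZ had an r of -0.21 with GC content over the 35 genes. With the trends on GC content and length removed, 19 of the 35 were lower (54.3%, against 19.9% of all genes), all 9 of the reported genes among them, and 0 were higher (20.1% of all genes).

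**Figure D4:**
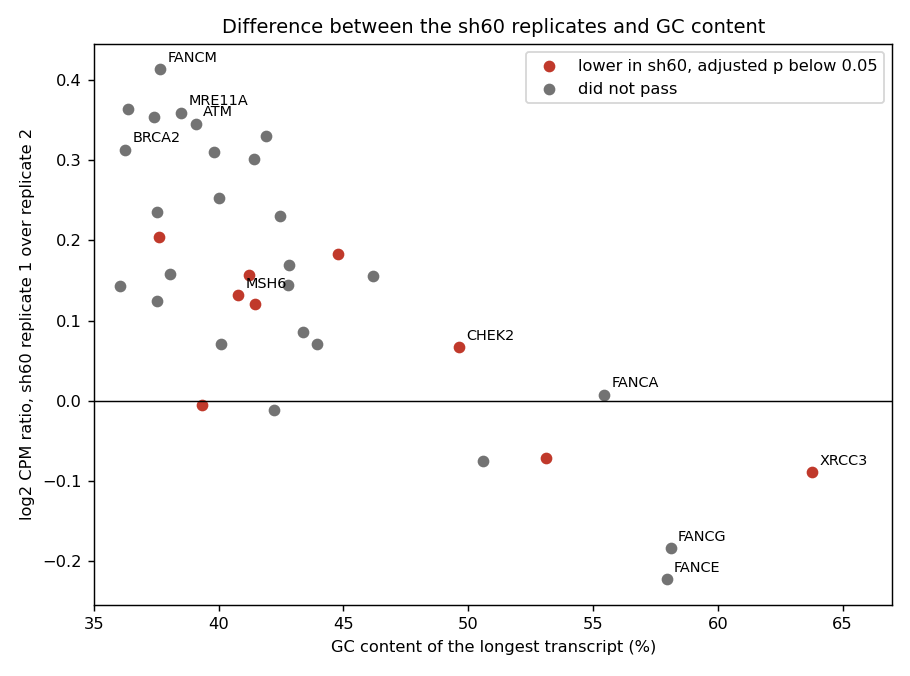
Log2 ratio of CPM in sh60 replicate 1 over sh60 replicate 2 against the GC content of the longest transcript, for the 35 genes, with the 9 lower genes in red. The ratio reaches 0.41 at low GC content (FANCM) and -0.22 at high GC content (FANCE).

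Other genes of the same pathways were taken from written lists. Of 86 further recombination, Fanconi, mismatch repair and checkpoint genes that were tested, 13 were lower (15.1%, against 13.0% of all genes) and 4 were higher (15.8% of all genes), with a median log2 fold change of -0.12. The share of lower genes lay near that of all genes. Of 36 recombination genes NUCKS1, PARPBP and HELB were lower and MUS81, an endonuclease of joint molecules, was higher. Of 18 Fanconi genes RFWD3 and DCLRE1A were lower and ERCC4, the nuclease that unhooks crosslinks, was higher (30.1 and 25.0 CPM in sh60, 20.4 and 18.4 CPM in LacZ, adjusted p = 0.00362). Of 26 checkpoint and chromatin response genes 7 were lower (26.9%, against 13.0% of all genes) and 2 were higher (7.69%, against 15.8%). The largest changes with values well above 1 CPM in that list were RAD9A, a subunit of the clamp that calls ATR (15.5 and 18.5 CPM in sh60, 26.6 and 30.7 CPM in LacZ, adjusted p = 0.000129), and BABAM1 of the BRCA1-A complex (70.6 and 77.9 CPM in sh60, 115 and 109.8 CPM in LacZ, adjusted p = 6.88e-05). Higher were WEE1, the kinase that restrains CDK1 (278 and 265 CPM in sh60, 199 and 195 CPM in LacZ, adjusted p = 0.000253), and H2AFX, which was named after its values were seen. Without LacZ replicate 1, 8 of the 86 were lower (7.20% of all genes), and without LacZ replicate 3, 4 were (5.77% of all genes). Without sh60 replicate 1, 22 were lower (16.3% of all genes), and without sh60 replicate 2, 16 were lower and 7 higher (15.5% and 16.8% of all genes). Of the 18 Fanconi genes 0 were lower and 0 higher without LacZ replicate 3, ERCC4 included. NUCKS1, HELB, RAD9A, BABAM1 and WEE1 passed under all 13 alternatives.

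Other repair routes and DNA replication were compared in the same way. In end joining 1 of 11 genes was lower (DCLRE1C, which codes for Artemis) and 0 higher, in nucleotide excision repair 2 of 17 were lower (ERCC3 and LIG1) and 1 higher (GTF2H1), and in base excision repair 3 of 19 were lower (UNG, PARP1 and MUTYH) and 0 higher. The shares of lower genes, 9.09%, 11.8% and 15.8%, lay near the 13.0% of all genes. With DESeq2 end joining had 0 lower genes (10.6% of all genes). With the GC and length trends removed the shares were 27.3%, 11.8% and 31.6%, against 19.9% of all genes. Calls in each of these lists moved when 1 library was left out. The median log2 fold changes of the lists were -0.09, 0.02 and -0.16. Across the fits without 1 library these medians ranged from -0.10 to -0.04, from -0.04 to 0.06 and from -0.19 to -0.13. Of 27 S-phase genes 13 were lower (48.1%, against 13.0% of all genes) and 0 were higher, with a median of -0.22. UHRF1, which helps to copy DNA methylation, had 37.7 and 40.1 CPM in sh60 and 76.2 and 71.8 CPM in LacZ (log2 fold change -0.93, adjusted p = 1.11e-06). MCM5, a subunit of the replicative helicase, had 93.1 and 112 CPM in sh60 and 165 and 169 CPM in LacZ (log2 fold change -0.70, adjusted p = 1.89e-05). Without LacZ replicate 1, 6 of the S-phase genes were lower (22.2%, against 7.20% of all genes), and without LacZ replicate 3, 4 were (14.8%, against 5.77%). Without sh60 replicate 1, 20 were lower (74.1%, against 16.3%), and without sh60 replicate 2, 17 were (63.0%, against 15.5%). CDKN1A, the p53 target that inhibits cyclin-dependent kinases, had 226 and 257 CPM in sh60 and 64.8 and 42.8 CPM in LacZ (log2 fold change 2.16, SE 0.14, adjusted p = 7.38e-09). The part of S-phase content or of CDKN1A in the lower recombination genes was not tested.

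Markers of other cell types also differed between the groups. Of 9 tested fibroblast markers 4 were higher in sh60 (44.4%, against 15.8% of all genes), namely COL1A1, COL1A2, LUM and POSTN. Another 2 were lower (22.2%, against 13.0% of all genes). Fibroblast markers summed to 929 and 1093 CPM in sh60 and 544 and 447 CPM in LacZ. COL1A1 alone reached 684 CPM, and none of the markers was at 0 in all libraries. Of 10 neuron markers 6 were higher (60%, against 15.8% of all genes) and 2 were lower (20%, against 13.0%). Neuron markers summed to 541 and 551 CPM in sh60 and 448 and 399.6 CPM in LacZ. Blood markers summed to 3.23 and 3.29 CPM in sh60 and 3.06 and 3.39 CPM in LacZ, with PTPRC and HBB at 0. Of 3 tested blood markers 1 was higher (33.3%, against 15.8% of all genes) and 0 were lower. Of 11 embryonal carcinoma markers 5 were lower (45.5%, against 13.0% of all genes) and 1 was higher (9.09%, against 15.8%). Embryonal carcinoma markers summed to 4745 and 4527 CPM in sh60 and 4902 and 5157 CPM in LacZ. The part of these markers in the results for the 35 genes was not tested.

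Many repair genes sit head to head with a neighbour, 2 genes read in opposite directions from starts close together. Of the 35 genes 12 (34.3%) had a tested neighbour that starts within 1000 bases on the other strand in hg19, against 17.1% of 15879 tested genes. Reads were counted by strand, per the file headers, so the 2 genes of a pair were counted apart. XRCC3 and ZFYVE21, whose starts lie 258 bases apart, changed in opposite directions. ZFYVE21, which codes for a FYVE zinc finger protein, had 21.8 and 25.9 CPM in sh60 and 15.2 and 14.1 CPM in LacZ (log2 fold change 0.71, SE 0.12, adjusted p = 0.000224), against -0.48 for XRCC3.

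C12orf4, the neighbour of RAD51AP1 at 276 bases, had 99.5 and 95.2 CPM in sh60 and 79.0 and 76.0 CPM in LacZ (log2 fold change 0.33, adjusted p = 0.00872), while RAD51AP1 did not pass. MOSPD2, the neighbour of FANCB at 343 bases, had 19.1 and 16.99 CPM in sh60 and 13.8 and 15.004 CPM in LacZ (log2 fold change 0.33, adjusted p = 0.0491), and FANCB had -0.37 without passing. The other 9 neighbours did not pass. Among them were HSCB beside CHEK2 (log2 fold change -0.18, SE 0.17, adjusted p = 0.472), NPAT, a coactivator of histone genes, beside ATM (-0.01, SE 0.11) and DCTN5, a dynactin subunit that starts 9 bases from PALB2 (-0.01, SE 0.08). The difference between the 2 genes of a pair was not tested.

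**Figure D5:**
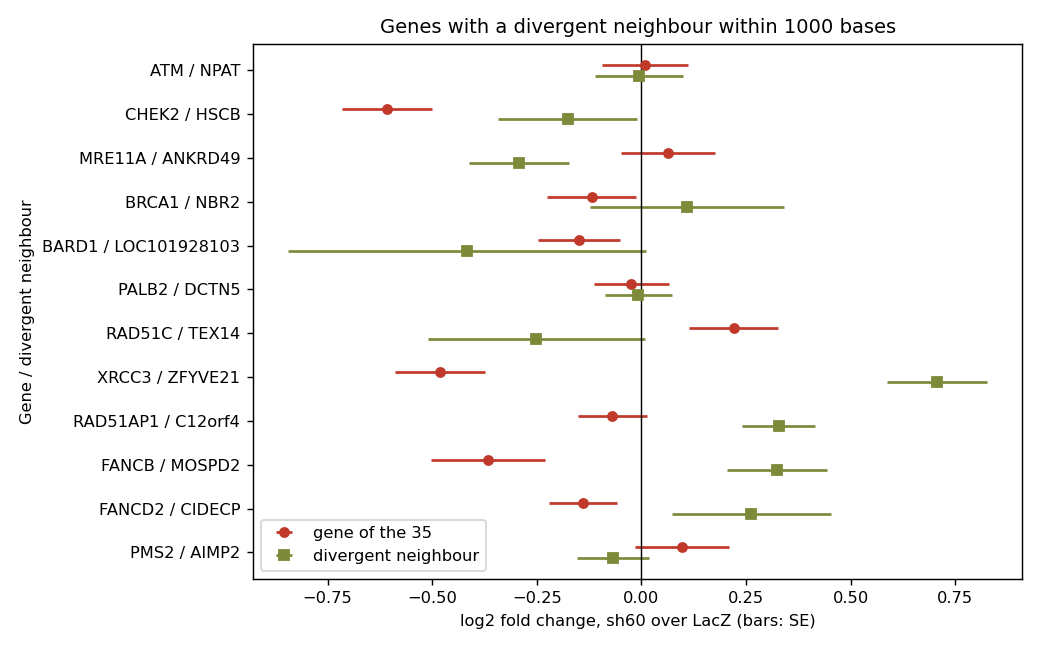
Log2 fold change of sh60 over LacZ for the 12 genes with a tested divergent neighbour (red circles) and for that neighbour (green squares), with bars of 1 SE. XRCC3 lies at -0.48 and ZFYVE21 at 0.71, whereas ATM and NPAT, and PALB2 and DCTN5, lie together near 0.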

How the data were processed

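Single-end libraries of a stranded mRNA kit were sequenced on a NovaSeq instrument, per the labels' protocols. Alignment to hg19 used STAR 2.7.6a, per the submitters' processing notes. The deposited values are raw counts per gene, made with featureCounts of Subread 2.0.0 over exons on the reverse strand, per the file headers. No option for multi-mapped or multi-gene reads is given there, so the defaults, which drop such reads, are assumed.

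Genes were filtered with filterByExpr, leaving 16040 of the 20937 with at least 1 count, and tested with edgeR 4.0.16 in R 4.3.3 (quasi-likelihood, TMM, group as the only term, common biological coefficient of variation 7.33%, 2 residual degrees of freedom). The script was tested on simulated data. Neither pair of replicates agreed within sampling noise (chi-square over its degrees of freedom, 15.8 in sh60 and 5.89 in LacZ), so none was taken for a repeat deposit. That spread can come from library preparation and does not show separate cultures. Alternatives were other scalings, DESeq2 1.42.0, limma-voom (limma 3.58.1), other filters, leaving out each library, and removal of trends on exon length and on GC content, known for 97.3% of tested genes.

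All 35 genes are named. BEND3 and CDKN1A were also named, and from each other list up to 6 genes past the threshold with the smallest p. Some genes that this rule takes are not reported here. Promoters are of the genes with the smallest p on each side. The members and lists were chosen with earlier results of these data known, and motifs, divergent neighbours and replicate differences were looked at after values were seen. Intervals are at 95%.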

Additional observations from a re-analysis of the deposited data

How the results depend on the processing

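No paired analysis was possible because the sh60 and LacZ groups share only 1 replicate number. Other scalings, DESeq2, limma-voom, other filters and removal of the length trend gave between 8 and 11 lower genes of the 35. Removing the GC and length trends raised the share of lower genes to 19.9% over all genes, and that of higher genes to 20.1%. It gave 19 lower of the 35 genes (54.3%). Of the 86 other recombination, Fanconi, mismatch repair and checkpoint genes 27 were lower (13 as reported). Of the 74 end joining, excision repair and S-phase genes 32 were lower and 4 higher (19 and 1 as reported). Of those 32, 21 were S-phase genes. Library totals or removal of the length trend gave 3 higher of the 74, where 17.6% and 16.6% of all genes were higher. Leaving out 1 library moved the lower count between 2 and 20 and the higher count between 0 and 1 for the 35 genes, between 4 and 22 lower and 1 and 7 higher for the related lists, and between 6 and 29 lower and 1 and 2 higher for the other repair and S-phase lists. BEND3 had log2 fold changes of -0.56 to -0.36 in those fits. The cause of these movements was not tested.

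Signs turned in 12 genes that did not pass as reported, and none passed in the turned direction. With upper-quartile scaling the log2 fold changes were -0.021 for ATM, -0.026 for FANCA and -0.018 for FANCM. With limma-voom they were -0.0072 for ATM and -0.0010 for FANCM, and with library totals 0.026 for BRIP1, 0.0025 for PALB2 and 0.0079 for RAD54B. BRIP1 had 0.0037 with no filter and 0.00055 with the stricter one, of 1 CPM in 2 libraries. Removing the length trend gave -0.051 for ATM, -0.019 for FANCA and -0.025 for FANCM, and removing GC and length trends gave -0.078 for ATM, 0.0012 for FANCG and -0.054 for FANCM. Leaving out 1 library gave ranges of -0.17 to 0.17 for ATM, -0.12 to 0.24 for MRE11A, -0.22 to 0.078 for RAD50, -0.29 to 0.039 for BRCA1, -0.12 to 0.12 for BRIP1, -0.11 to 0.059 for PALB2, -0.22 to 0.096 for XRCC2, -0.14 to 0.0018 for RAD51AP1, -0.081 to 0.044 for RAD54B, -0.0075 to 0.020 for FANCA, -0.14 to 0.042 for FANCG and -0.20 to 0.21 for FANCM.

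With 2 libraries a group, the 95% interval of a gene near 0 such as FANCA still spanned -0.19 to 0.20 on the log2 scale.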
